A study of Mus musculus with 3 samples.

Results

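Cytosolic ribosomal proteins were examined in 3 RNA sequencing libraries of mouse heart fibroblasts, each library being the only one of its group. The entries of the deposited tables were named by their position on GRCm38, and protein coding genes were taken whose symbols start with Rpl or Rps and a number, together with Rpsa, Rplp0, Rplp1 and Rplp2. This gave 54 genes of 15844 named protein coding entries and of 31930 entries in all. They comprised 46 of the 77 standard ribosomal protein genes, 26 of the large and 20 of the small subunit, and 8 other genes that carry such a symbol (Rpl3l, Rpl7l1, Rpl10l, Rpl22l1, Rpl37rt, Rpl39l, Rps27l and Rps19bp1). The remaining 31 standard genes, Rpsa and Rplp2 among them, had no entry of their own. For 21 of these the locus was shared by several entries that span that gene alone, and values are given below by entry, taking the entry whose lowest value over the libraries was highest. That entry is not always the most abundant one in a library. Another 10, such as Rpl5, Rpl31, Rpl38 and Rps25, are not analysed here. The entries of 8 members also cover a same-strand gene of a small RNA, which for 7 (Rpl6, Rpl7a, Rpl21, Rpl30, Rps12, Rps13 and Rps20) is a small nucleolar RNA (snoRNA) gene, and the FPKM of such an entry may include reads of the small RNA. All levels are FPKM, fragments scaled to transcript length and library size, and all ratios are log2 of FPKM with 1 added.

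The library labelled FSP1+ came from FSP1-GFP transgenic mice, in which the FSP1 (S100a4) promoter drives GFP, taken 10 days after myocardial infarction (MI) as GFP+ cells without CD45 or CD31. The library labelled αSMA+ came from αSMA-GFP transgenic mice at the same 10 days post MI, sorted on GFP alone. The library labelled uninjured came from hearts of wild type mice, whose cells were kept on plates for 4 h before RNA was taken. All mice had the C57/BL6 background and an age of 12 weeks in the labels. Injury, genotype, sorting and plating therefore differ together between the uninjured library and the others and cannot be told apart. The paper describes sorts of injured hearts as made from pooled hearts, though not for these libraries in particular, and the number of animals behind a library is not given in the sources used here. With 1 library per group no difference has a replicate check, no test was run, and every value describes these libraries and not the conditions.

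A ribosome is built from ribosomal RNA and a set of proteins that are needed in equal numbers, 1 copy of nearly every protein in each particle. The small subunit reads the mRNA, and the large subunit joins the amino acids and holds the tunnel through which the new chain leaves. Genes of these proteins are among the most expressed of any growing cell, and many of their introns hold snoRNA genes, whose products guide the modification of ribosomal RNA. Their mRNAs begin with a run of pyrimidines, the 5′ terminal oligopyrimidine (TOP) tract, through which mTOR signaling and the protein LARP1 set how much of each mRNA is translated.

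Start site sequences are shown for members named in the results below, since the TOP tract is what standard genes are known to share. RefSeq promoters of GRCm38.p6, 250 bases before to 50 bases after the start, were found for 42 of the 54 members (34 standard and 8 other genes), taking the start nearest to the 5′ end of the entry. Runs of C and T around CTTT are in capitals, and windows in lower case alone have no match. Windows with a match are placed around the run and not around the start, so the capitals need not be a TOP tract.
Rps27: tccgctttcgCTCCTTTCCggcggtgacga
Rps19: accccgtcgTTCCCTTTCCCCTggctggca
Rpl15: gaaagCCTTCTTCCTTTCCTCTggcggcag
Rps6: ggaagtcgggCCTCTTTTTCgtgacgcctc
Rps15a: cccggcccaCTCTCTTTCTgccatcttccc
Rpl41: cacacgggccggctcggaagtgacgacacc
Rps13: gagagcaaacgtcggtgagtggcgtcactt
Rpl24: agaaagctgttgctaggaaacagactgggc
Rpl39l: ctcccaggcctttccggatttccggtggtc
Rpl7l1: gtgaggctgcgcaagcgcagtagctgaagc
Rps27l: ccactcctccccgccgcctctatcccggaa
The windows with a match lie on GRCm38.p6 at chr3:90213631-90213660 (minus strand, Rps27), chr7:24884622-24884651 (plus, Rps19), chr14:18270966-18270995 (minus, Rpl15), chr4:86857349-86857378 (minus, Rps6) and chr7:118116142-118116171 (minus, Rps15a). Those without a match are centred on the annotated start, at chr10:128549154-128549183 (minus, Rpl41), chr7:116334176-116334205 (minus, Rps13), chr16:55966260-55966289 (plus, Rpl24), chr16:10170213-10170242 (plus, Rpl39l), chr17:46782642-46782671 (minus, Rpl7l1) and chr9:66946071-66946100 (plus, Rps27l).

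The motif searched was CTTT with at least 2 C or T bases on each side, within 50 bases of the start. It was found on the sense strand of 14 of 34 standard members (41.2%), of 0 of the 8 other genes, and of 5.59% of the 12698 promoters of named protein coding genes. On the opposite strand it was found in 0 of the 34 standard members and in 4.28% of all promoters. In 6 of the 14 the C before TTT lay within 4 bases of the annotated start. Among the windows shown, it lay at 1 in Rps27, 2 in Rps6 and 4 in Rpl15, counted from that start. In Rps19 it lay at −41 and in Rps15a at −11, before that start, so those runs are outside an mRNA that begins there. The Rps19 entry itself begins further upstream, at chr7:24884635, inside the window shown. The Rps19 run thus lies at the 5′ end of the measured entry. CCGGAAG, the core of ETS factor sites, was found on either strand within the whole 300 bases of 11 of 34 standard members (32.4%), against 11.7% of all promoters, and of 2 of the 8 other genes. On the sense strand alone it was found in 26.5% of the standard members and 6.52% of all promoters. TATAAA, the core of the TATA box, was found on the sense strand from 50 bases before to 10 bases after the start in 1 of 34 standard members (2.94%), against 4.17% of all promoters. The motifs were searched on both strands. A match is a description of these windows, and no match says only that the letters are not there. In FSP1+ over αSMA+ the median log2 ratio was −0.05 over the 14 standard members with the pyrimidine motif and 0.14 over the 20 without it. Over the library labelled uninjured these medians were 0.49 with and 0.62 without the motif for the library labelled FSP1+, and 0.74 with and 0.71 without it for the library labelled αSMA+.

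Across the libraries as a whole, the tables give no read numbers, so no counting error is given for any value. Where low values of below 0.15 FPKM move in steps of a single read, the most frequent ratio of the steps was 1.30 for αSMA+ over FSP1+ (748 entries) and 1.57 for uninjured over FSP1+ (473 entries), each in its own table. Only 17.9% and 29.6% of those entries lay within 0.1 of that ratio on the log2 scale, so this is a rough guide to the relative depth. The ratio of uninjured over αSMA+ was 1 in their own table and 1.01 when reached through the others. Acta2, the gene of αSMA, had 279.8 FPKM in the library labelled FSP1+ and 65.0 FPKM in the library labelled αSMA+, which goes against the label of the αSMA+ sort. S100a4, the gene of FSP1, had 30.8 FPKM in the library labelled FSP1+ and 12.0 FPKM in the library labelled αSMA+. Fibroblast markers were present in every library, none at 0, but did not move together. In FSP1+ over αSMA+, 3 of 7 were at least 2-fold higher and 3 at least 2-fold lower (median 0.86), beside 19.1% and 14.5% of all entries. Their summed level, most of it Dcn in αSMA+, was 2856 FPKM in the library labelled FSP1+ and 4673 FPKM in the library labelled αSMA+. The sum was 3281 FPKM in the library labelled FSP1+ and 8361 FPKM in the library labelled uninjured, in the table of that pair. Markers of other cells moved with the groups as well. The 9 macrophage markers summed to 3263 FPKM in the library labelled FSP1+ and 1188 FPKM in the library labelled αSMA+, and the 10 endothelial markers to 1051 and 271 FPKM in the same order of libraries. In that order, 6 pericyte and smooth muscle markers summed to 373 and 123 FPKM, and 5 neutrophil markers to 148 and 33.5 FPKM. The neutrophil markers did not move together. Of 4 measured, 2 were at least 2-fold higher in FSP1+ and 1 at least 2-fold lower, beside 19.1% and 14.5% of all entries. Sums of 5 cardiomyocyte markers (53.5 and 105 FPKM) and of 8 T and B cell markers (10.4 and 21.1 FPKM) went the other way. Against the library labelled uninjured, the macrophage sum was 3747 FPKM in the library labelled FSP1+ and 86.8 FPKM in uninjured, and 1408 FPKM in the library labelled αSMA+ and 75.1 FPKM in uninjured, with no marker at 0 in any library. All 9 macrophage markers were at least 2-fold higher in either injured library than in the uninjured one, beside 14.6% (FSP1+) and 17.0% (αSMA+) of all entries. The part of these markers in the results below was not tested, and in bulk RNA fewer cells of a type and less RNA per cell cannot be told apart.

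Standard ribosomal protein genes were abundant in all libraries. In the table that pairs them, their median level was 440.0 FPKM in the library labelled FSP1+ and 396 FPKM in the library labelled αSMA+, and 44 of the 46 had at least 100 FPKM in each. The 5 most abundant were Rpl41, Rps19, Rplp1, Rps29 and Rps28. Rpl41, which encodes the smallest ribosomal protein (chromosome 10), had 3179 FPKM in the library labelled FSP1+ and 1738 FPKM in the library labelled αSMA+. Rplp1, Rps29 and Rps28 had 1066, 1085 and 983 FPKM in the library labelled FSP1+, and 894, 824 and 861 FPKM in the library labelled αSMA+. Rps19, a small subunit gene mutated in human Diamond-Blackfan anemia, had 1379 FPKM in the library labelled FSP1+ and 1183 FPKM in the library labelled αSMA+. These levels stood far above those at the other end of the set. The 5 least abundant were Rps15a, Rpl22, Rpl15, Rpl21 and Rps24, of which Rps15a had 11.3 FPKM in the library labelled FSP1+ and 14.8 FPKM in the library labelled αSMA+. The span of the Rps15a entry was matched by an annotated transcript of 5179 bases, against a median of 755 bases over the 46. A long model lowers an FPKM, but whether the authors' model of Rps15a had this length is not known here. Rpl22, whose product also binds other RNAs, had 41.9 FPKM in the library labelled FSP1+ and 37.6 FPKM in the library labelled αSMA+. Levels of different genes are thus not even, although their products are used in equal numbers. All log2 ratios compare a gene only with itself across libraries. Levels of paralogs as a percent of their standard genes, given below, also rest on the length models of both entries.

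**Figure D1:**
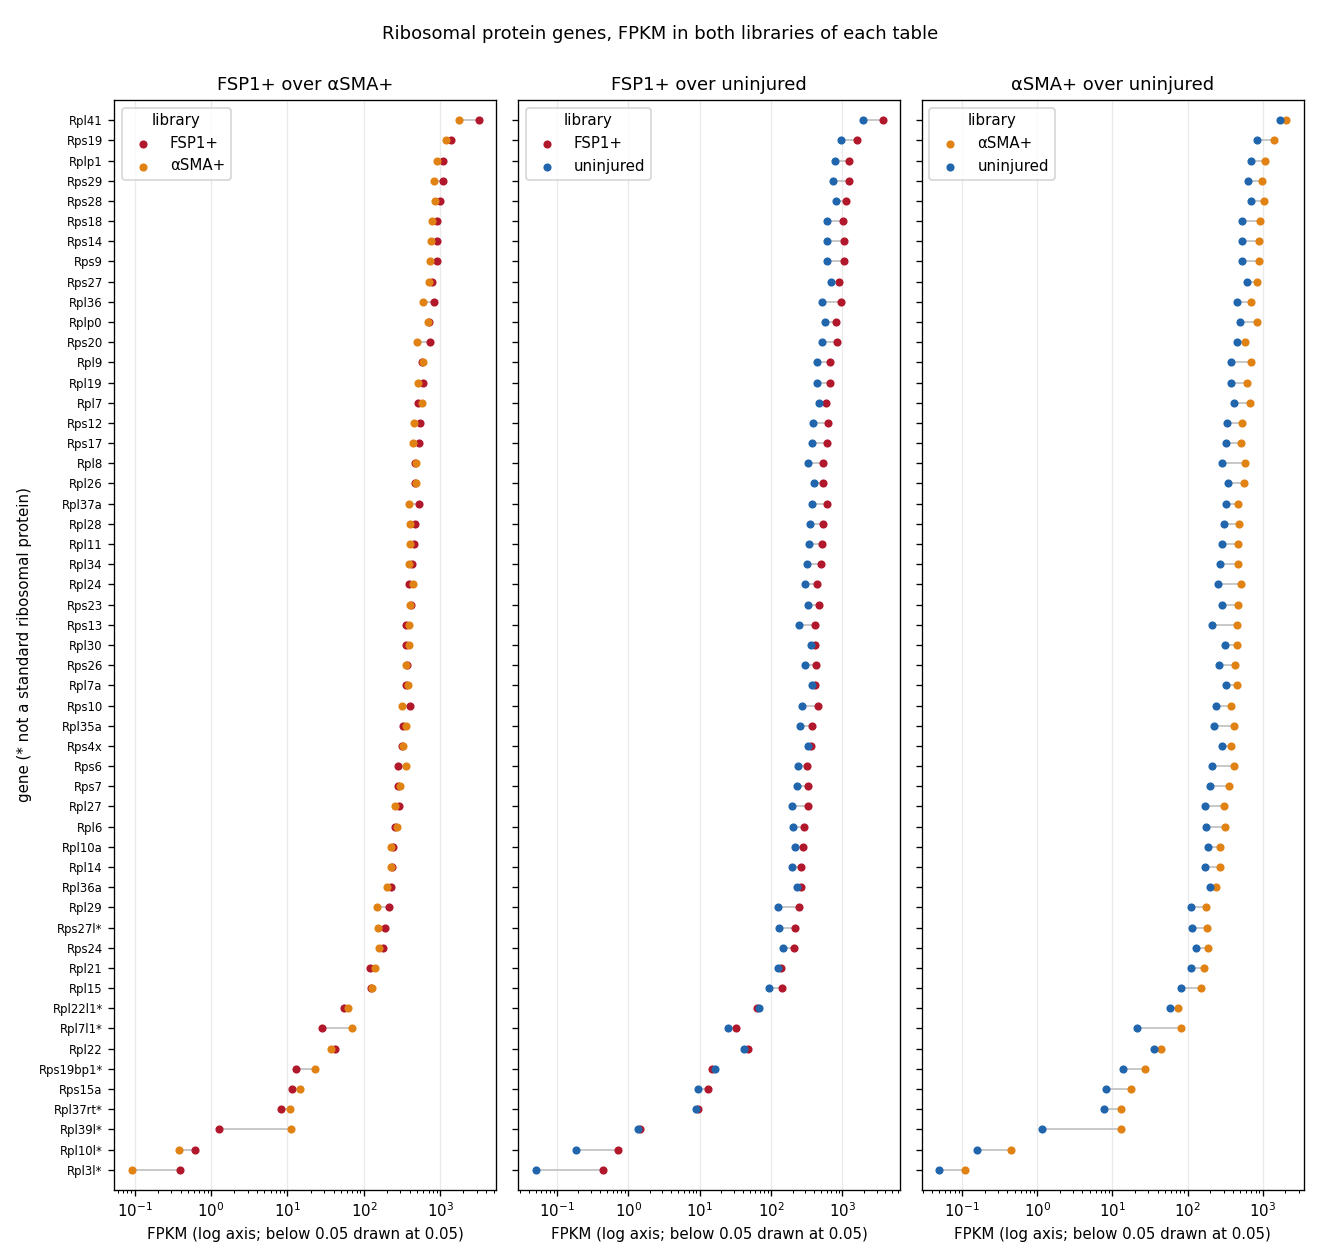
FPKM (log axis) of ribosomal protein genes in both libraries of each table, 1 point per library and gene, ordered by mean level in the table of FSP1+ and αSMA+. The points of standard genes lie close together between FSP1+ and αSMA+ and further apart against uninjured, while Rpl39l and Rpl7l1 stand apart in the panels with αSMA+.

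Between the libraries labelled FSP1+ and αSMA+, the first comparison of the study, which asks how these groups of activated fibroblasts differ, standard ribosomal protein genes were nearly level. None of the 46 was past 2-fold in either direction, where over all 16374 entries measured 19.1% were higher in FSP1+ by 2-fold or more and 14.5% lower. The median log2 ratio of the 46 was 0.14 (1.10-fold), against 0.04 over all entries. Of the 46, 29 had a ratio above 0 (63.0%), beside 51.3% of all entries. The quartiles were −0.07 and 0.25, and the extremes were −0.36 and 0.87. Other entries as abundant, 919 with a mean of at least 100 FPKM, had a median of 0.05 but quartiles of −1.17 and 1.01. The direction of the median turned with the ratio taken through the uninjured library, where it was −0.12 with 12 of 46 above 0, and it was 0.29 with 41 above 0 as TPM, each library summing to the same total. Large subunit genes had a median of 0.06 and small subunit genes of 0.18.

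The 4 highest ratios among standard genes without a small RNA gene were those of Rpl41 (0.87), Rpl29 (0.54), Rpl36 (0.47) and Rpl37a (0.43). Rpl29, which also encodes a heparin binding protein, had 214 FPKM in the library labelled FSP1+ and 147 FPKM in the library labelled αSMA+. Rpl36 had 821 FPKM in the library labelled FSP1+ and 593 FPKM in the library labelled αSMA+. All 4 lie below the median length of the set. The 4 lowest were Rps15a (−0.36), Rps6 (−0.32), Rpl24 (−0.17) and Rpl7 (−0.16), of which Rpl24 also lies below that median length. Rps6, the target of the S6 kinases, had 281 FPKM in the library labelled FSP1+ and 352 FPKM in the library labelled αSMA+. Among members that hold a snoRNA gene, Rps20 had the highest ratio (0.57, with 725 FPKM in the library labelled FSP1+ and 488 FPKM in the library labelled αSMA+) and Rpl21 the lowest (−0.22, with 120 FPKM and 139 FPKM in the same order).

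In the comparison with the uninjured library, the standard ribosomal protein genes of the library labelled FSP1+ were higher together in FPKM, as were most other abundant entries. All 46 standard genes had a ratio above 0, beside 50.9% of 17578 entries measured and 65.8% of other entries of at least 100 FPKM, with a median of 0.59 (1.5-fold) against 0.02 over all entries. This direction did not hold under every scaling, since 23 of 46 were above 0 when centred on those abundant entries. Of the other members, Rps19bp1 (−0.13) and Rpl22l1 (−0.10) were below 0. None was past 2-fold, where 14.6% of all entries were higher by 2-fold or more and 16.0% lower. The ratios ran from 0.12 to 0.96, with quartiles of 0.44 and 0.71. Among genes without a small RNA gene, the highest were those of Rpl29 (0.96), Rpl41 (0.91), Rpl36 (0.87) and Rps14 (0.77), a gene lost in the human 5q- syndrome. Rpl29 had 246 FPKM in the library labelled FSP1+ and 126 FPKM in the library labelled uninjured. The lowest of these genes were Rps4x (0.13), Rpl36a (0.19), Rpl22 (0.22) and Rpl7 (0.32), of which the X-linked Rps4x had 361 FPKM in the library labelled FSP1+ and 331 FPKM in the library labelled uninjured. Members that hold a snoRNA gene spanned much of the range, from Rpl21 (0.12), Rpl7a (0.13) and Rpl30 (0.20) to Rps13 (0.75).

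The library labelled αSMA+ showed a like pattern against the uninjured library. All 46 ratios were above 0, beside 52.9% of 17204 entries and 71.6% of other entries of at least 100 FPKM. The median of the 46 was 0.70 (1.62-fold), against 0.05 over all entries and 0.70 over those other abundant entries. At least 2-fold higher were 2 of the 46, Rps13 and Rps15a, beside 17.0% of all entries, and 0 were at least 2-fold lower, beside 7.11%. Rps13 (1.11) had 459 FPKM in the library labelled αSMA+ and 213 FPKM in the library labelled uninjured, and its entry holds Snord14a. Rps15a (1.001) had 17.5 FPKM in the library labelled αSMA+ and 8.24 FPKM in the library labelled uninjured. Both calls turned on the scaling, since over the alternative pseudocounts, filters and scalings the ratio of Rps13 ran from 0.28 to 1.11 and that of Rps15a from 0.25 to 1.08. Just below 2-fold were Rpl8 (0.99), Rpl24 (0.99) and Rps6 (0.99). Rpl8 encodes a protein close to the peptidyl transferase centre and had 576 FPKM in the library labelled αSMA+ and 289 FPKM in the library labelled uninjured. The lowest ratios without a small RNA gene were those of Rpl36a (0.26), Rpl41 (0.29), Rpl22 (0.31) and Rps4x (0.40), and among members with a snoRNA gene that of Rps20 (0.35). Rpl41 had 2059.7 FPKM in the library labelled αSMA+ and 1684 FPKM in the library labelled uninjured, so it was among the highest ratios of FSP1+ and among the lowest of αSMA+. The comparisons of FSP1+ and αSMA+ with uninjured share the uninjured library.

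**Figure D2:**
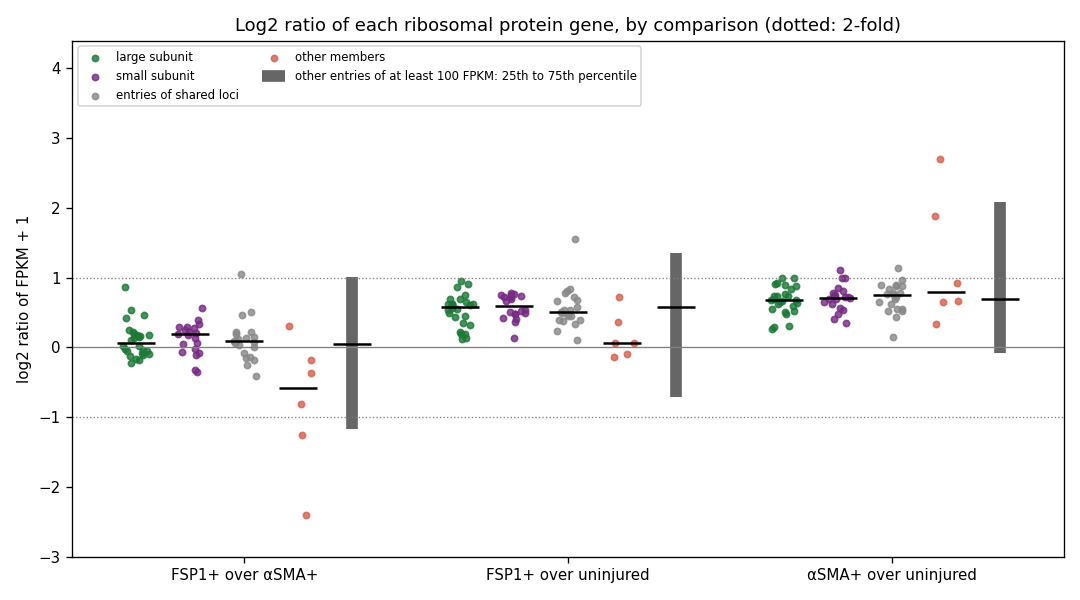
Log2 ratio of FPKM + 1 of each gene in the 3 comparisons, by subunit, for entries of shared loci and for the other members, with black lines at the medians and grey bars from the 25th to the 75th percentile of other entries of at least 100 FPKM. Standard genes lie in a narrow band around the median of the other abundant entries, and Rpl39l and Rpl7l1 lie outside it wherever αSMA+ is compared.

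How far these genes were above the uninjured library depends on what the libraries are scaled to. Other entries with a mean of at least 100 FPKM also had medians of 0.58 (FSP1+ over uninjured, 945 entries) and 0.70 (αSMA+ over uninjured, 890 entries), with quartiles of −0.71 and 1.35 and of −0.09 and 2.09. Centring on these was tried only once the values were known, and then 23 of the 46 stood above 0 in FSP1+ over uninjured and 22 of the 46 in αSMA+ over uninjured. As TPM the median was 0.36 for FSP1+, with 40 of 46 above 0, and 0.07 for αSMA+, with 31 of 46 above 0. Scaled to the sum of named protein coding entries that hold no small RNA gene, also added afterwards, it was 0.07 for FSP1+ with 28 above 0 and −0.13 for αSMA+ with 11 above 0. What did not move with scaling was the spread, since a scaling shifts all 46 by nearly the same amount. The width between the quartiles was 0.27 for FSP1+ over uninjured and 0.24 for αSMA+ over uninjured, against 2.06 and 2.17 among the other abundant entries. Among those that are named, protein coding and hold no small RNA gene, it was 1.32 and 1.73 in the same order.

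A share of a library's summed FPKM does not depend on the scaling of a table. The 54 genes held 3.91% of the summed FPKM of the library labelled FSP1+, 3.03% of that labelled αSMA+ and 2.97% of that labelled uninjured. Of the FPKM of named protein coding entries alone they held 7.60% in the library labelled FSP1+, 6.23% in that labelled αSMA+ and 6.95% in that labelled uninjured. The library labelled FSP1+ had the highest share by either total, while αSMA+ and uninjured changed places. Rpl41 alone made up 12.4% of the sum of the 54 in the library labelled FSP1+, 7.90% in that labelled αSMA+ and 10.2% in that labelled uninjured. Without it the shares of all FPKM were 3.42% in FSP1+, 2.79% in αSMA+ and 2.67% in uninjured.

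**Figure D3:**
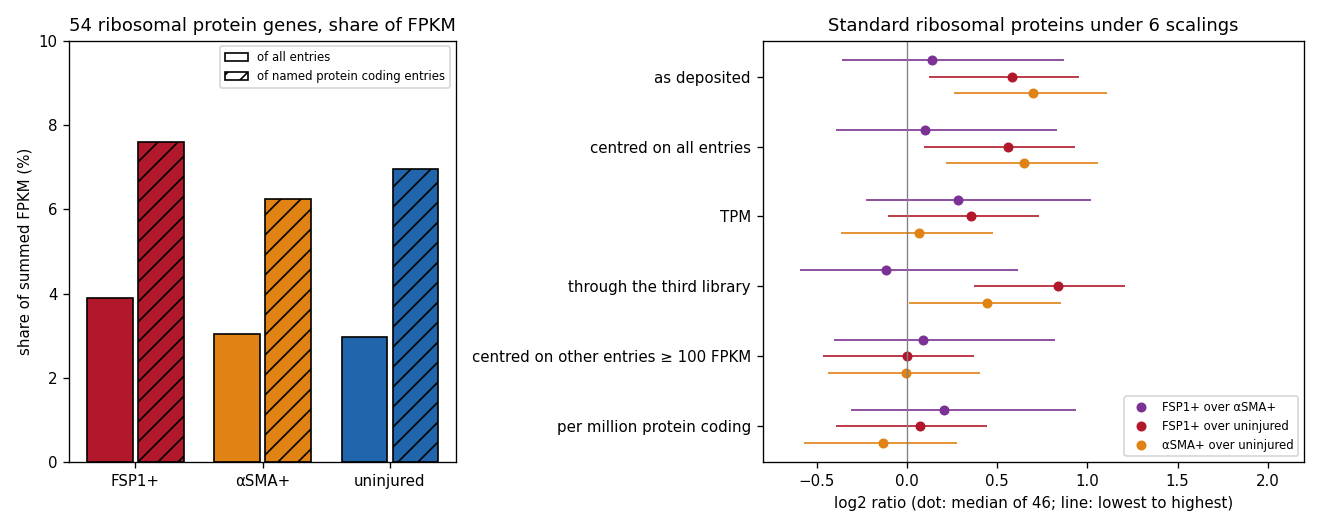
Left, share of the summed FPKM (%) held by the 54 genes in each library, of all entries and of named protein coding entries. Right, log2 ratio of the 46 standard genes in the 3 comparisons under 6 scalings, with a dot at the median and a line from the lowest to the highest gene. The medians over uninjured run from 0.84 (FSP1+, through the third library) to −0.13 (αSMA+, scaled to protein coding entries).

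Ratios of standard genes varied with the length of the annotated transcript. That is the GENCODE M21 transcript of the gene closest in span to the entry, the longest among ties. It need not be the model behind the FPKM, and the same transcripts give the words counted below. In FSP1+ over αSMA+, the 16 standard genes under 600 bases had a median log2 ratio of 0.22, the 15 from 600 to under 1000 bases 0.10, and the 12 from 1000 to under 2000 bases −0.02. The 3 of at least 2000 bases had 0.15, so the medians did not fall over all classes. Spearman's rho between ratio and length was −0.36 over the 46 genes, which share both libraries. It was −0.36 in FSP1+ over uninjured as well and 0.20 in αSMA+ over uninjured. Other protein coding entries of at least 100 FPKM had medians of 1.04 (40 entries under 600 bases), 0.59 (75 from 600 to under 1000 bases), 0.22 (151 from 1000 to under 2000 bases) and −0.23 (222 of at least 2000 bases) in FSP1+ over αSMA+. Over such entries rho was −0.31 in FSP1+ over αSMA+, −0.23 in FSP1+ over uninjured and 0.05 in αSMA+ over uninjured. Ratios thus fell with length in both sets where FSP1+ was compared, but not in αSMA+ over uninjured. The part of length in the ratios of Rpl41, Rpl36 and Rpl37a was not tested. Many standard genes also have processed copies elsewhere in the genome. Of the 50-base words of the 46 transcripts, a median of 51.8% also occurred in a transcript of another gene, and 25 genes had more than 50% of their words in common with others, so reads of a near-identical copy may be counted with or split from most members.

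**Figure D4:**
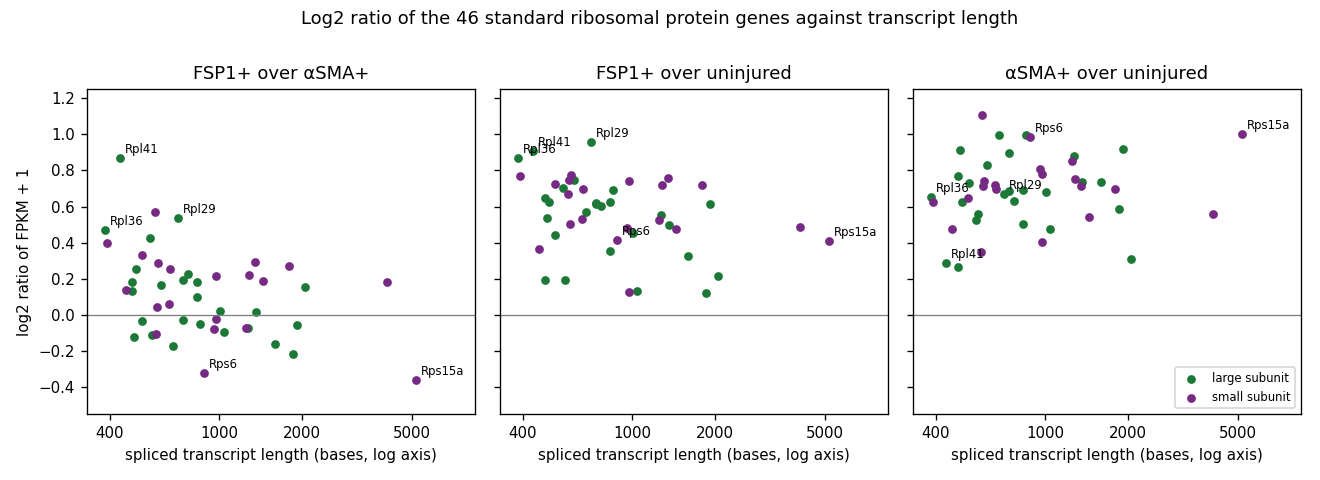
Log2 ratio of FPKM + 1 of the 46 standard ribosomal protein genes against the spliced length of the annotated transcript (bases, log axis), by comparison and subunit. Short genes such as Rpl41 and Rpl36 have high ratios in FSP1+ over αSMA+ (0.87 and 0.47), and Rpl41 has a low one in αSMA+ over uninjured (0.29).

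Standard genes are also given by their place in the ribosome, though most places have too few measured genes for a comparison between them. Of the P stalk, which recruits the translation factors, Rplp0 and Rplp1 have entries of their own. Rplp0, the base of the stalk, had 704 FPKM in the library labelled FSP1+ and 697 FPKM in the library labelled αSMA+ (0.01), and its ratio over uninjured was 0.50 for FSP1+ and 0.74 for αSMA+. Rplp1 had 1066 FPKM in the library labelled FSP1+ and 894 FPKM in the library labelled αSMA+ (0.25), with 0.62 over uninjured for FSP1+ and 0.62 for αSMA+. The entry used for the Rplp2 locus had a ratio of 0.22 between FSP1+ and αSMA+. At the Rpl12 locus the entry used had 0.09 and the other entry −0.94, which was the higher in αSMA+ (142 FPKM in the library labelled FSP1+ and 274 FPKM in the library labelled αSMA+). Rpl11, which with Rpl5 carries the 5S RNA and can bind MDM2, had 449 FPKM in the library labelled FSP1+ and 396 FPKM in the library labelled αSMA+ (0.18). Near the peptidyl transferase centre, Rpl8 had a ratio of −0.05 between FSP1+ and αSMA+, and the entry used for the Rpl10 locus 0.07. At the Rpl3 locus the entry used had 0.12, but another entry was listed at 0 in the library labelled FSP1+ and had 488 FPKM in the library labelled αSMA+. Rps23, at the decoding centre, had 414 FPKM in the library labelled FSP1+ and 396 FPKM in the library labelled αSMA+ (0.06). The entry used for the Rpsa locus, whose product is also known as the laminin receptor, had 844 FPKM in the library labelled FSP1+ and 958 FPKM in the library labelled αSMA+ (−0.18). Of 9 genes mutated in human Diamond-Blackfan anemia, 8 were measured, with medians of 0.18 (FSP1+ over αSMA+), 0.58 (FSP1+ over uninjured) and 0.70 (αSMA+ over uninjured). Of these 8, 0 was past 2-fold in any comparison. Over all entries, 19.1%, 14.6% and 17.0% were at least 2-fold higher and 14.5%, 16.0% and 7.11% lower, in the same order.

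The entries used for the 21 shared loci, which the choice of members leaves out, gave medians of 0.09 for FSP1+ over αSMA+, 0.51 for FSP1+ over uninjured and 0.76 for αSMA+ over uninjured. All 21 entries used were above 0 in both comparisons with uninjured, which does not hold for every entry of these loci. The other entry of the Rpl10 locus had −0.37 for FSP1+ and −0.42 for αSMA+. An entry of the Rps3a1 locus (uc012crb.1) was listed at 0 in both injured libraries and was present in uninjured. The other entry of the Rpl12 locus was higher, with 2.21 for FSP1+ and 3.40 for αSMA+. Past 2-fold were the entry of the Rps3 locus in αSMA+ over uninjured (1.13, with 260.1 FPKM in the library labelled αSMA+ and 118 FPKM in the library labelled uninjured) and that of the Rpl13a locus, both named after their values were seen. The entry used for the Rpl13a locus, whose product is also known from translational silencing in human myeloid cells, had 787 FPKM in the library labelled FSP1+ and 380.0 FPKM in the library labelled αSMA+ (1.05). Set against uninjured it had 903 FPKM in the library labelled FSP1+ and 308 FPKM in the library labelled uninjured (1.55). Between FSP1+ and αSMA+ the other Rpl13a entry went the opposite way, at 159 FPKM in αSMA+ against 0 in FSP1+. The call past 2-fold in that comparison is thus one of the entry used and not of the locus. These values rest on the choice of entry, and reads cannot be divided between the entries of a shared locus here.

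The 8 other genes behaved less alike. Rpl39l, an autosomal copy of Rpl39 known for its expression in the mouse testis, lies on chromosome 16. It had 1.27 FPKM in the library labelled FSP1+ and 11.1 FPKM in the library labelled αSMA+ (−2.41). Set against uninjured it had 13.1 FPKM in the library labelled αSMA+ and 1.17 FPKM in the library labelled uninjured (2.70), and FSP1+ and uninjured were level at 1.46 and 1.34 FPKM (0.07). The library labelled αSMA+ was thus the high one. The entry used for its partner Rpl39, a protein of the exit tunnel, had 382 FPKM in the library labelled FSP1+ and 275 FPKM in the library labelled αSMA+ (0.47), so Rpl39l stood at 0.333% of Rpl39 in FSP1+ and 4.02% in αSMA+. No 50-base word of the Rpl39l transcript occurs in another gene's transcript.

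Rpl7l1, on chromosome 17, followed the same order. It had 28.1 FPKM in the library labelled FSP1+ and 68.8 FPKM in the library labelled αSMA+ (−1.26), and 81.5 FPKM in the library labelled αSMA+ against 21.5 FPKM in the library labelled uninjured (1.88). Its partner Rpl7 had 514 FPKM in the library labelled FSP1+ and 575 FPKM in the library labelled αSMA+. Rpl39l and Rpl7l1 were the only members at least 2-fold lower in FSP1+ than in αSMA+, 2 of 52 measured, beside the 14.5% of all entries given above. With Rps13 and Rps15a they were the 4 of 52 members at least 2-fold higher in αSMA+ than in uninjured. Over the main value and the alternative pseudocounts, filters and scalings, the ratio of Rpl39l in FSP1+ over αSMA+ ran from −3.03 to −1.36 and that of Rpl7l1 from −1.51 to −1.12. In αSMA+ over uninjured the ratio of Rpl39l ran from 1.55 to 3.38 and that of Rpl7l1 from 1.08 to 1.92. Rps19bp1 encodes not a ribosomal protein but a protein that binds Rps19 and activates SIRT1, and had 12.7 FPKM in the library labelled FSP1+ and 23.1 FPKM in the library labelled αSMA+ (−0.81). Its ratio was 0.92 in αSMA+ over uninjured and −0.13 in FSP1+ over uninjured.

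Rps27l, a p53 target, had 189 FPKM in the library labelled FSP1+ and 153 FPKM in the library labelled αSMA+ (0.30), at 24.0% and 21.5% of Rps27 in the same order. Rpl22l1, whose mRNA is held down by Rpl22, had 54.7 FPKM in the library labelled FSP1+ and 62.2 FPKM in the library labelled αSMA+ (−0.18). It was the only paralog above its partner, at 131% of Rpl22 in FSP1+ and 166% in αSMA+, and at 163% in uninjured. Rpl37rt had 8.17 FPKM in the library labelled FSP1+ and 10.8 FPKM in the library labelled αSMA+ (−0.37). The remaining paralogs were below 1 FPKM in every library and were left out of the counts. Rpl3l, known from heart and skeletal muscle, had 0.387 FPKM in the library labelled FSP1+ and 0.0916 FPKM in the library labelled αSMA+ and a listed value of 0 in uninjured. Rpl10l, which takes the place of the X-linked Rpl10 in mouse male germ cells, had 0.620 FPKM in the library labelled FSP1+ and 0.382 FPKM in the library labelled αSMA+, where the entry used for the Rpl10 locus had 509 and 484 FPKM.

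**Figure D5:**
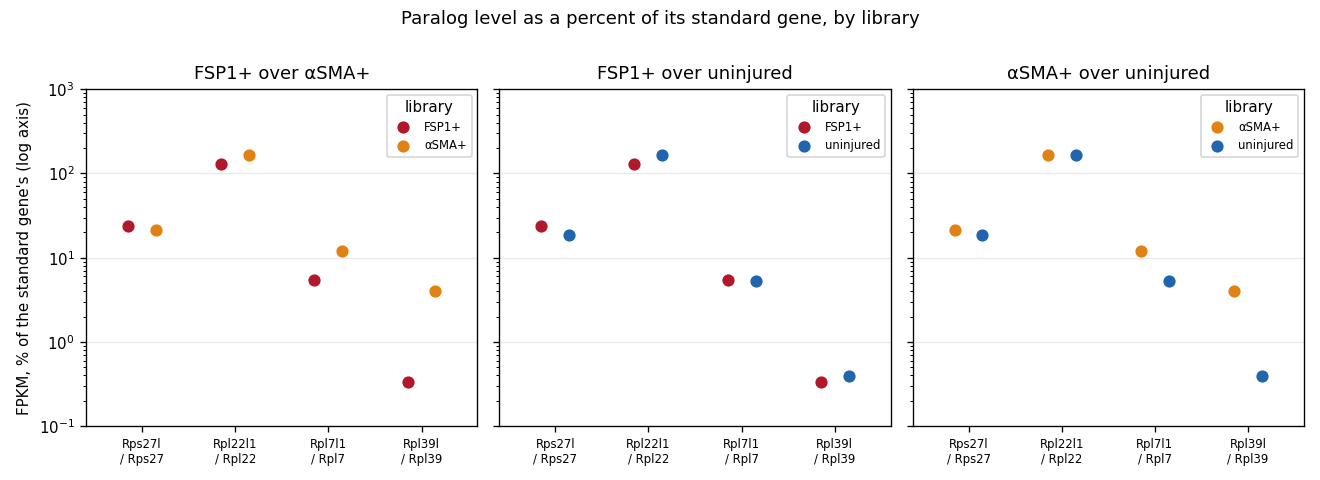
FPKM of 4 paralogs as a percent of the FPKM of their standard genes (log axis) in both libraries of each table. Rpl39l lies at 4.02% of Rpl39 in αSMA+ and at 0.333% in FSP1+, and Rpl22l1 lies above 100% of Rpl22 in every library.

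Other genes that work with the ribosomal proteins are given for comparison. Of 19 other genes whose mRNAs carry a TOP tract, 15 were measured. In FSP1+ over αSMA+, 0 of the 15 were 2-fold higher and 1 was 2-fold lower (median −0.31), beside 19.1% and 14.5% of all entries. In FSP1+ over uninjured 0 of 15 was past 2-fold (median 0.42), where 14.6% of all entries were higher and 16.0% lower. At least 2-fold higher in αSMA+ than in uninjured were 7 (median 0.999), beside 17.0% of all entries. Eef1a1, the elongation factor that brings tRNA to the ribosome, had 1639.9 FPKM in the library labelled FSP1+ and 2132 FPKM in the library labelled αSMA+ (−0.38). Its entry holds a small RNA gene. Fau, whose product is processed to a ribosomal protein, had 627 FPKM in the library labelled FSP1+ and 622 FPKM in the library labelled αSMA+ (0.01). Npm1, the nucleolar protein nucleophosmin, had 159 FPKM in the library labelled FSP1+ and 433 FPKM in the library labelled αSMA+ (−1.44). It is the member of this list past 2-fold in FSP1+ over αSMA+ and belongs to ribosome assembly too.

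Genes that assemble ribosomes departed from the ribosomal proteins themselves. Of 36 listed, 23 were measured, and 20 of them were at least 2-fold lower in FSP1+ than in αSMA+, beside 14.5% of all entries, with 0 higher (median −1.65), while the 46 standard ribosomal proteins had 0 past 2-fold. Against uninjured, αSMA+ was 2-fold or more higher for 21 of 23 (median 2.32), beside 17.0% of all entries, and FSP1+ for 1 of 23 (median 0.44), beside 14.6%. Fbl, the methyltransferase fibrillarin that snoRNAs guide, had 45.6 FPKM in the library labelled FSP1+ and 167 FPKM in the library labelled αSMA+ (−1.85). Rrs1 had 14.7 FPKM in the library labelled FSP1+ and 149.6 FPKM in the library labelled αSMA+ (−3.26), and Gar1, of the H/ACA particles, 26.3 and 80.0 FPKM in the same order (−1.57). Among 14 regulators of these genes, 9 were measured, with 1 at least 2-fold higher and 5 lower in FSP1+ than in αSMA+, beside 19.1% and 14.5% of all entries. Myc, which drives transcription of ribosome genes, had 72.9 FPKM in the library labelled FSP1+ and 462 FPKM in the library labelled αSMA+ (−2.65). Against uninjured it had 548 FPKM in the library labelled αSMA+ and 7.49 FPKM in the library labelled uninjured (6.02). Eif4ebp1, a target of mTOR that holds back cap-dependent translation, had 72.5 FPKM in the library labelled FSP1+ and 199.8 FPKM in the library labelled αSMA+ (−1.45). Rheb, the activator of mTOR, had a ratio of −1.43 between FSP1+ and αSMA+ and an entry that holds a small RNA gene, and Trp53 one of −0.37. These lists were chosen with earlier results of these libraries known and stand as a description.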

How the data were processed

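RNA of 3 libraries of mouse heart fibroblasts was sequenced, 1 per group. The authors used the Tuxedo Suite on GRCm38, with Cuffdiff for the comparisons (version not given in the sources used here). What the authors deposited is FPKM, in 3 tables that each hold a pair of libraries and were scaled separately. Between the tables, the FPKM of FSP1+ stood in a ratio of 1.15, that of αSMA+ of 1.19 and that of uninjured of 0.867, and no value was carried over from a table to another in the main results. The deposited tables also hold log2 fold changes, a test statistic (a score) and p-values and q-values of the authors' own comparisons, none of which was used. An offset of 0.001 was removed from every FPKM. The labels state single reads of 50 bases, whereas the methods state paired ends, and the number in the title of a sample does not match that in its description for αSMA+ and uninjured.

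Entries alone at their locus were named where they overlapped a RefSeq (GRCm38.p6) or GENCODE M21 gene by at least 0.8 of the union, the next gene below 0.7, which named 18379 of 31930. Ratios are log2 with a pseudocount of 1 FPKM, which understates the change of low genes, among entries of at least 1 FPKM in either library, and calls are at 2-fold. Summaries were tested on simulated data. Named genes are the paralogs with their partners, Rpsa and the P proteins, the 5 most and 5 least abundant standard members, the 4 members at either end of each comparison, members past 2-fold, small role groups, snoRNA-holding extremes and the 4 most abundant genes of the other gene lists, while cell type markers are given as sums. A few genes that this rule or the closing section would name are not reported here, and the plot of levels leaves such a gene out. Rpl13a and Rps3 were chosen after their values were seen, and so were the class of entries with a mean of at least 100 FPKM, the scalings on it and on protein coding entries, the length classes, the count of starts within 4 bases, the percent of partners and the rule behind the further entries in the closing section. Shared loci were planned by their most abundant entry but are given by the entry with the highest minimum, and another choice was not tried. The pyrimidine motif searched is narrower than the run of C and T planned, and CCGGAAG and TATAAA were added to it. Members and lists were chosen with earlier results of these data known. Alternatives were other pseudocounts, filters and thresholds, centring, TPM, ratios through the third library, small RNA entries left out and shared loci added. Scripts ran under Python 3.11.15 with matplotlib 3.10.9, pandas 2.3.3 and NumPy 2.4.6.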

Additional observations from a re-analysis of the deposited data

Results flagged for a closer look

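Loci of standard ribosomal protein genes that are shared by several entries hold further entries beside the one used above, and some of these exceed it in an injured library. A few of these had at least 100 FPKM in an injured library and were listed at 0 in the uninjured library of the same table, which is why they are given here. In the library labelled FSP1+, in its table with uninjured, the value was 1110.1 FPKM at the Rpl37 locus and 215 FPKM at the Rpl4 locus. In the library labelled αSMA+, in its table with uninjured, the Rpl4 locus had 919 FPKM. The same library had 579 FPKM at the Rpl3 locus, 478 FPKM at the Rpl13 locus, 353 FPKM at the Rps3a1 locus, 188 FPKM at the Rpl13a locus and 129 FPKM at the Rpl27a locus. The reverse also occurred, since an entry of the Rps3a1 locus (uc012crb.1) was listed at 0 in the library labelled FSP1+ and had 569 FPKM in the library labelled uninjured. No fold is given against a value listed at 0, and the difference was not tested.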

How the results depend on the processing

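No paired analysis was possible because each group has 1 library, and no replicate could be left out. Of the counts, medians and shares over ribosomal protein genes, 113 alternative values stayed close to the reported ones, 18 moved and 4 changed sign. Scaling moved the medians over uninjured and is not settled by these data. The median of all 52 measured members in FSP1+ over αSMA+ was 0.08 and turned to −0.17 through the uninjured library. In FSP1+ over uninjured it was 0.55 and turned to −0.039 when centred on other entries of at least 100 FPKM. In αSMA+ over uninjured it was 0.70, and it was 0.078 as TPM, −0.0024 when centred on those entries and −0.12 scaled to protein coding entries. In these last cases the shift follows from the construction of the scaling.

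Counts at 2-fold were small and moved with several settings. In FSP1+ over αSMA+ the count of higher members was 0, and 1 as TPM, 1 with shared loci added and 1 at 1.5-fold, while that of lower members was 2, and 0 among standard genes alone. In FSP1+ over uninjured the count of higher members was 0, and 6 through the third library, 1 with shared loci, 1 scaled to protein coding entries and 24 at 1.5-fold. In αSMA+ over uninjured it was 4, and 2 as TPM, 2 through the third library, 2 among standard genes, 2 centred on abundant entries, 2 scaled to protein coding entries and 39 at 1.5-fold. Of named protein coding FPKM the shares were 7.60% in FSP1+, 6.23% in αSMA+ and 6.95% in uninjured. Of the values of single genes, 1403 stayed close and 156 moved. Of ratios past 2-fold, 0 changed sign, whereas smaller ratios could, as that of Rpl39l in FSP1+ over uninjured did (−0.52 to 0.29).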
